A study of Arabidopsis thaliana with 46 samples.

Results

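The genes described here are the 6 of *Arabidopsis thaliana* that encode asparagine synthetases (*ASN1*, AT3G47340; *ASN2*, AT5G65010; *ASN3*, AT5G10240) and glutamate dehydrogenases (*GDH1*, AT5G18170; *GDH2*, AT5G07440; *GDH3*, AT3G03910). They were taken by gene ID from the 38194 gene IDs listed in the count tables of the 3 experiments, with earlier results of these data known. The expression values are mRNA-seq read counts per 1000000 counts of a library (CPM) after TMM scaling, a correction for library composition, within each experiment. All plants were of the Col-0 ecotype, labelled 10 days old and grown on 1 mM KNO3 with sucrose before treatment.

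The 46 libraries fall into 14 groups. In the root and protoplast experiment, Root_60N and Root_0N were whole roots, and Protoplast_60N and Protoplast_0N were cells released from roots by wall digestion, transfected with the empty vector and sorted, with 4 libraries in each group. 60N was 20 mM KNO3 plus 20 mM NH4NO3, 0N was 20 mM KCl, and neither drug was given. In the nitrogen dose experiment, root protoplasts carried TGA4, a bZIP transcription factor fused to the glucocorticoid receptor (GR), or the GR-only empty vector (EV), and received 0N, 5N (5 mM KNO3) or 60N, with 3 libraries in each group. All 18 of those libraries had 35 µM cycloheximide (CHX), which blocks translation, and 10 µM dexamethasone (DEX), which lets the fusion enter the nucleus. There 60N supplied ammonium and 5N did not, so between them dose and nitrogen source cannot be told apart. In the cycloheximide experiment, TGA4 and EV protoplasts received N and 10 µM DEX, with 35 µM CHX (+CHX) or without it (-CHX). Each group again had 3 libraries. The labels do not give that N dose. The study's methods refer there to the N treatment of its main assay, 20 mM KNO3 plus 20 mM NH4NO3. Per the study's methods, the wells of each vector in the last 2 experiments were split from one transfection, so a difference between vectors and a difference between transfections cannot be told apart, and the spread between wells may be technical. Roots and protoplasts differed also in how the plants were grown (in liquid medium for roots and on plates for protoplasts), in wall digestion and in overnight culture, and bulk libraries do not separate a change in the cells present from a change in RNA per cell.

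Asparagine synthetase moves the amide nitrogen of glutamine onto aspartate. The product, asparagine, holds much nitrogen per carbon and is a main form in which plants transport and store it. *ASN1*, also known as *DIN6*, is a textbook gene of darkness and sugar shortage, whereas *ASN2* is known to be expressed in the light. Glutamate dehydrogenase is a mitochondrial enzyme that interconverts glutamate with 2-oxoglutarate and ammonium, and in plants it mainly breaks glutamate down. *GDH1* encodes the beta subunit and *GDH2* the alpha subunit of its hexamers, and *GDH3* encodes a further subunit.

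The 6 loci lie on chromosomes 3 and 5 (TAIR10.1 assembly, RefSeq annotation; the count tables hold no coordinates). *ASN1* is at chr3:17437840-17441431 on the minus strand with up to 10 exons, and *GDH3* at chr3:1006780-1009018 on the plus strand with up to 9. *ASN2* is at chr5:25969035-25972575 on the plus strand with up to 13 exons, and *ASN3* at chr5:3212651-3216551 on the minus strand with up to 14. *GDH1* is at chr5:6006035-6008726 and *GDH2* at chr5:2355759-2358241, both on the plus strand, with up to 9 and 8 exons. Reads were counted over whole genes, so no transcript form was told apart.

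Because TGA factors bind TGACG and many other bZIP factors bind ACGT cores, the 250 bases before each RefSeq gene start were searched on both strands for TGACG, for ACGTG and for ACTCAT. The motif TGACG stood in 18.6% of the 27443 such windows of the genome, ACGTG in 22.9% and ACTCAT in 12.3%. The *ASN1* window held TGACG 2 times and ACGTG 2 times, the ACGTG pair overlapping in one palindrome, and the *GDH1* window held ACGTG 2 times in the same way. The windows of *ASN2*, *ASN3*, *GDH2* and *GDH3* held none of the 3. The windows of the 3 genes with the largest increases in whole roots at 60N are given 5′ to 3′ on the strand of the gene, with matches in capitals (CGTCA is TGACG read on the other strand). The *ASN1* window is chr3:17441432-17441681, minus strand, the *GDH1* window chr5:6005785-6006034, plus strand, and the *GDH2* window chr5:2355509-2355758, plus strand.
ASN1: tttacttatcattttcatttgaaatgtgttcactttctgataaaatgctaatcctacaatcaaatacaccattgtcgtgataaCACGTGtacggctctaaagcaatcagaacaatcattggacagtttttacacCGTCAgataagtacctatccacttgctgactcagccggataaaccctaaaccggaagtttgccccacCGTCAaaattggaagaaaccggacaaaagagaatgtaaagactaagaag
GDH1: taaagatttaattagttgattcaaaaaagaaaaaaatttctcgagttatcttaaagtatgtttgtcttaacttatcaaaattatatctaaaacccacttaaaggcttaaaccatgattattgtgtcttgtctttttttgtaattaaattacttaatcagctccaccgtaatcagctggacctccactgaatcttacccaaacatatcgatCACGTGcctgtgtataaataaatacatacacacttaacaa
GDH2: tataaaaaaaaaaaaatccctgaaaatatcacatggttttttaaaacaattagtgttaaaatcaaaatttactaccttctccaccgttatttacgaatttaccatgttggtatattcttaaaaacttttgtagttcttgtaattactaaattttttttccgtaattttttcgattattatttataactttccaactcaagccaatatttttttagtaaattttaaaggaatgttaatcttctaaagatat
In *ASN1* the palindrome spans bases 167 to 162 before the start, and the TGACG matches span bases 116 to 112 and 49 to 45. In *GDH1* the palindrome spans bases 40 to 35. A match is a match of letters only, not a binding site.

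Library totals ran from 9677719 to 17478925 counts in the root and protoplast experiment, from 7835278 to 16214169 in the nitrogen dose experiment and from 2397664 to 8177924 in the cycloheximide experiment. The TGA4 transcript averaged between 5241 and 24460 CPM in the 5 TGA4 groups, against 32.9 to 48.3 CPM in the 5 EV groups. One library went against its label. In the library labelled EV_60N replicate 1, the nitrite reductase gene *NIR1* stood at 12.5 CPM, against 153 and 123 CPM in the other 2 EV_60N libraries and 8.35 to 12.7 CPM in EV_0N. Tests of the members that involve this library are given with and without it where its absence changed a call, as are some other values that it moved. The 9 markers of root cell identities summed to 225 to 291 CPM in Root_60N, 203 to 225 CPM in Root_0N, 90.1 to 104 CPM in Protoplast_60N and 82.0 to 107 CPM in Protoplast_0N, so the label of root tissue held and the sum was lower in protoplasts. *CASP1* alone averaged 123 CPM in Root_60N and 91.1 CPM in Root_0N. At an edgeR adjusted p under 0.05, 8 of the 9 were lower and 1 was higher in protoplasts at each supply. Over all genes, 86.4% passed at 0N and 85.3% at 60N. Over the protoplast libraries of every experiment, *COBL9*, *PLT1*, *SHR*, *WER* and *WOX5* each had 0 counts in some, and in none of the root libraries. In the root and protoplast experiment, 1 of the 9 markers was at 0 in each of Protoplast_0N replicates 1 and 2 and Protoplast_60N replicate 4. No marker was at 0 in its other protoplast libraries. The remaining zeros were in the nitrogen dose and cycloheximide experiments, which had no root libraries. The cycloheximide libraries also held fewer counts.

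In whole roots, 60N raised *ASN1*, *ASN2*, *GDH1* and *GDH2* and lowered *ASN3*. *GDH3* was lower too, but it entered the test only through its level at 0N. The largest shifts were in *ASN1*, which was near the limit of detection at 0N, in *GDH1* and *GDH2*, which rose 10.4-fold and 7.81-fold, and in *GDH3*, which fell to a few counts. The shifts of *ASN2* (1.39-fold) and *ASN3* (0.585-fold) were modest. For comparison, 43.2% of the 21007 genes tested were called in these roots at an adjusted p under 0.05 (17.4% higher and 25.7% lower; edgeR quasi-likelihood test with Benjamini-Hochberg adjustment), so that a call alone was common. That split turned with the setting, to 4747 higher and 4540 lower in a fit of the 2 root groups only and to 4426 and 4136 with no filter, against 3661 and 5404.

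*GDH1* read 182, 180, 201 and 213 CPM in the 4 Root_60N libraries, against 19.4, 19.1, 17.0 and 18.7 CPM in the 4 Root_0N libraries. Every library at 60N was far above every library at 0N, and both groups were tight. The log2 fold change was 3.38 ± 0.10 (SE, n = 4 each; edgeR adjusted p = 1.09e-15).

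*GDH2* was the most abundant member and read 864, 554, 785 and 746 CPM in Root_60N, against 92.0, 96.2, 99.0 and 90.5 CPM in Root_0N. The ranges did not overlap, and replicate 2 at 60N was the lowest of its group. The log2 fold change was 2.97 ± 0.14 (edgeR adjusted p = 6.37e-13). Per kilobase of exon, *GDH2* averaged 365 CPM and *GDH1* 105 CPM in Root_60N, and 46.8 CPM and 10.0 CPM in Root_0N, so *GDH2* stayed the higher of the pair at both supplies.

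*GDH3* went the other way, with 0.276, 0.379, 0.538 and 0.209 CPM in Root_60N (4 to 9 counts a library), against 4.54, 2.97, 13.3 and 7.05 CPM in Root_0N (71 to 264 counts). All 4 libraries at 0N exceeded all 4 at 60N, though they spread widely. The log2 fold change was -4.29 ± 0.51 (edgeR adjusted p = 7.99e-07). *GDH3* passed the filter on low counts in this experiment only through Root_0N, so a difference between the root groups followed from its presence in the test.

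*ASN1* read 11.5, 10.99, 32.7 and 38.5 CPM in Root_60N, against 0, 0.0418, 0.202 and 0.513 CPM in Root_0N, where the 4 libraries held 0, 1, 4 and 12 counts. The ranges were far apart, and within 60N the libraries fell at a lower and a higher level. The fitted log2 fold change was 6.86 ± 0.58 (edgeR adjusted p = 4.89e-09), and its size leans on the 17 counts at 0N, with values from 6.48 to 8.08 under the other settings tried.

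*ASN2* read 34.5, 49.0, 48.0 and 39.0 CPM in Root_60N, against 33.7, 31.1, 28.0 and 29.5 CPM in Root_0N. The lowest library at 60N lay just above the highest at 0N, and the log2 fold change was 0.48 ± 0.13 (edgeR adjusted p = 0.0059). *ASN3* read 30.3, 41.4, 38.2 and 31.4 CPM in Root_60N, against 65.2, 60.4, 54.8 and 60.9 CPM in Root_0N, with no overlap. Its log2 fold change was -0.77 ± 0.12 (edgeR adjusted p = 2.62e-05).

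The pool of asparagine synthetase transcripts thus changed in make-up. *ASN1* supplied 10.8% to 35.4% of the counts of the 3 *ASN* genes in Root_60N (mean 22.2% ± 11.3, SD, n = 4), against 0% to 0.564% in Root_0N (mean 0.213% ± 0.257). In the Root_0N library with no *ASN1* count, 0 of 2025 family counts allows a share of up to 0.148%, for counting error only. The difference in share had an exact permutation p of 0.0286, two-sided, the smallest that 4 against 4 allows, and 0.162 after adjustment over the 17 comparisons. Per kilobase of exon, the averages in Root_60N were 19.1 CPM for *ASN2*, 16.4 CPM for *ASN3* and 8.53 CPM for *ASN1*, and those in Root_0N were 28.0 CPM for *ASN3*, 13.7 CPM for *ASN2* and 0.0689 CPM for *ASN1*. The *GDH1* share of the 3 *GDH* genes was 21.1% ± 3.0 in Root_60N and 15.5% ± 1.6 in Root_0N (SD, n = 4 each; exact permutation p = 0.0286, adjusted 0.155 over 17).

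**Figure D1:**
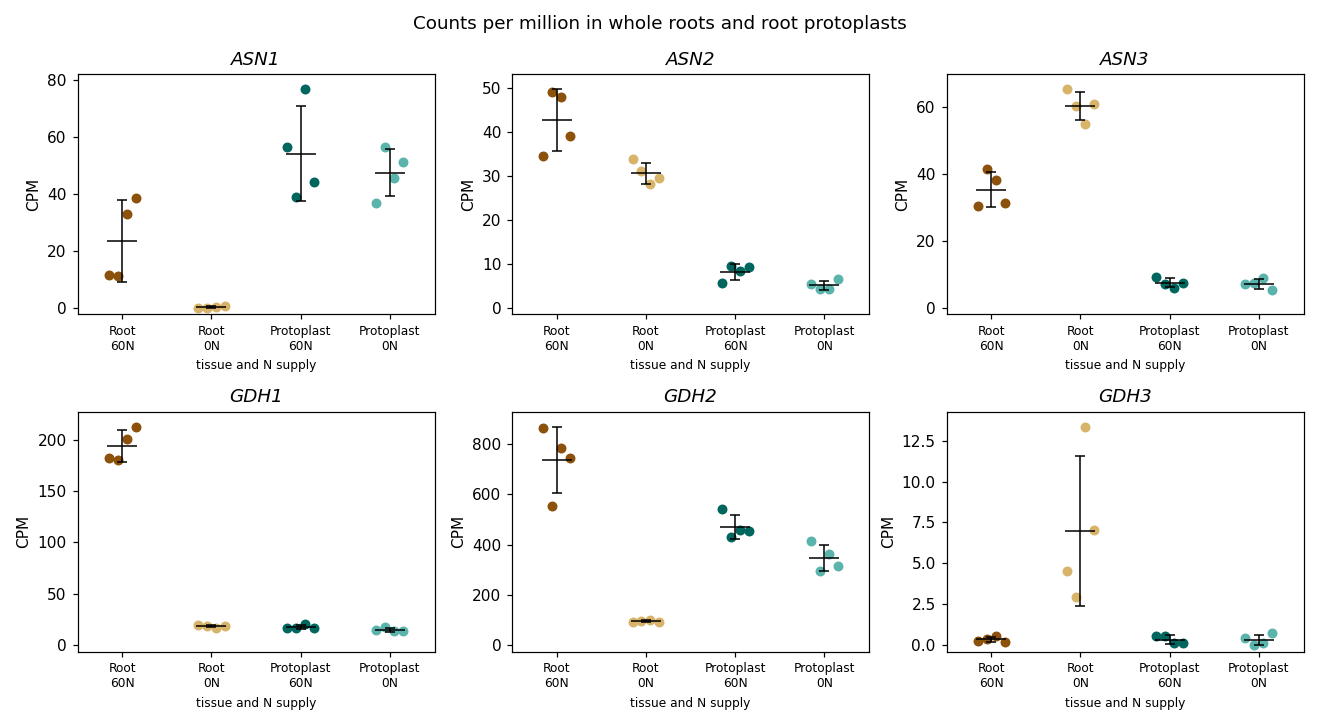
CPM (vertical axes, linear) of the 6 genes in whole roots and root protoplasts at 60N and 0N (horizontal axes). Each point is 1 library, and the black bar and whiskers give the mean and SD of 4 libraries. *GDH1* sits at 180 to 213 CPM in Root_60N alone and between 13.4 and 20.3 CPM in the other 3 groups, whereas *ASN1* is low only in Root_0N.

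Neighbouring steps of the pathway moved in both directions in these roots, where 43.2% of all genes were called (17.4% higher and 25.7% lower). Of 7 genes of asparagine and aspartate turnover, 2 rose and 3 fell (median log2 change -0.09, as over all genes tested, -0.09). *ASPGB1*, an asparaginase that breaks asparagine down, rose by 1.27 ± 0.20 on the log2 scale to 23.9 CPM at 60N, against 9.90 CPM at 0N. The aspartate aminotransferase *ASP3* rose (1.08 ± 0.08), and its relative *ASP4* fell (-0.68 ± 0.09). Of 8 genes of glutamine and glutamate synthesis, none rose and 4 fell, with a median of -0.51. The cytosolic glutamine synthetases *GLN1;4* (-2.89 ± 0.16) and *GLN1;1* (-2.12 ± 0.12) fell most, followed by the ferredoxin-dependent glutamate synthase *GLU2* (-1.06 ± 0.10). Of 7 tested genes of the GABA shunt, which turns glutamate into succinate, 1 fell, the glutamate decarboxylase *GAD2* (-0.73 ± 0.11). Each change named had an edgeR adjusted p under 0.05.

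The dark-inducible (*DIN*) genes, a set expressed under darkness or sugar shortage to which *ASN1* also belongs, rose as a whole: 7 of 7 were higher at 60N, with a median log2 change of 3.93. Over all genes tested, 17.4% were called higher and 25.7% lower in these roots, with a median of -0.09. *DIN1* averaged 72.8 CPM in Root_60N, against 0.101 CPM in Root_0N, and *DIN2*, a beta-glucosidase, 8.93 CPM against 0.0600 CPM. *DIN11* rose by 4.79 ± 0.50 on the log2 scale, to 1.17 CPM against 0.0336 CPM. The Root_0N means of *DIN1*, *DIN2* and *DIN11* lay below the level of 3 counts a library, 0.125 to 0.152 CPM. The size of those folds is limited by this. Among 9 bZIP factors of the S1 and C groups, several of which are known regulators of *ASN1*, 4 rose and 3 fell. Their median log2 change was -0.008. *bZIP1* averaged 40.2 CPM in Root_60N, against 1.01 CPM in Root_0N (log2 5.32 ± 0.17), and *bZIP63* rose by 1.98 ± 0.11, whereas *bZIP44* fell (-1.54 ± 0.18). Of 4 nitrate sentinels, *NIR1* rose (0.86 ± 0.12), the transporter gene *NRT2.1* (-4.03 ± 0.21) and the nitrate reductase gene *NIA2* (-1.21 ± 0.10) fell, and *NIA1* was not called.

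Some markers of other cells were called as well, in roots where a call was common. Of 6 phloem markers, 2 rose and 1 fell at 60N, with 43.2% of all genes called, and their sum was 103 to 161 CPM in Root_60N and 90.3 to 130 CPM in Root_0N; none was at 0. *SUC2*, the companion cell sucrose transporter, rose by 0.90 ± 0.16 on the log2 scale (1.87-fold) and *AHA3* by 0.47 ± 0.13, while *SULTR2;1* fell (-0.81 ± 0.25). The libraries of the 2 supplies overlapped for each of the 6 phloem markers. Of 9 root identity markers, 3 rose and 2 fell. Of 5 green tissue markers, 2 rose, *GAPA* and, by 1.18 ± 0.17 on the log2 scale (2.27-fold), *RCA*. The sum of the 5 was 46.5 to 78.4 CPM in Root_60N. In Root_0N it was 85.1 CPM in replicate 1 and 24.8, 19.4 and 21.3 CPM in the others. The part of these cell markers in the changes of the *ASN* and *GDH* genes was not tested.

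In protoplasts without drugs, none of the 6 genes was called between 60N and 0N, where 2.41% of all genes were. At an unadjusted p under 0.05, 2 of the 6 passed, *ASN2* and *GDH2*, against 3313 of the 21007 genes tested. DESeq2 called both (adjusted p = 0.0175 and 0.0456). *GDH2* read 541, 430, 458 and 456 CPM in Protoplast_60N, against 415, 297, 362 and 313 CPM in Protoplast_0N. The ranges did not overlap, and the log2 fold change was 0.44 ± 0.13 (edgeR adjusted p = 0.0719). *ASN2* read 5.52, 9.501, 8.27 and 9.22 CPM in Protoplast_60N, against 5.41, 4.21, 4.23 and 6.41 CPM in Protoplast_0N, with ranges that overlapped (log2 0.69 ± 0.19, edgeR adjusted p = 0.054).

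*ASN1* was high in protoplasts at both supplies, at 56.5, 38.9, 76.6 and 44.3 CPM in Protoplast_60N and 36.8, 56.4, 45.4 and 50.9 CPM in Protoplast_0N. The groups overlapped through most of their range. *GDH1* read 17.0, 16.4, 20.3 and 16.6 CPM in Protoplast_60N and 15.0, 18.02, 13.96 and 13.4 CPM in Protoplast_0N, again with overlap. *ASN3* lay between 5.96 and 9.15 CPM in Protoplast_60N and between 5.24 and 8.99 CPM in Protoplast_0N, and *GDH3* stayed at or below 8 counts a library. In the same libraries 4 of 4 nitrate sentinels rose, *NIR1* by 3.27 ± 0.15 on the log2 scale. Of the *DIN* genes, 1 of 7 rose there, *DIN11*, by 2.83 ± 0.19.

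By the interaction term (protoplast minus root), the nitrogen effect differed between tissues for *ASN1*, *ASN3*, *GDH1* and *GDH2*, with 24.4% of all genes called. The difference in log2 change was -6.67 ± 0.70 for *ASN1* (edgeR adjusted p = 4.37e-07), -3.16 ± 0.15 for *GDH1* (4.13e-12) and -2.52 ± 0.18 for *GDH2* (2.72e-09). It was 0.83 ± 0.21 for *ASN3* (0.00561). For *GDH3* it was 4.31 ± 1.23 (0.0134), which follows from the same entry through Root_0N and is given as a description. For *ASN2* it was 0.21 ± 0.23 and was not called (edgeR adjusted p = 0.542). The *GDH3* call was lost without Protoplast_60N replicate 1 (3.93, adjusted p = 0.0501) or replicate 2 (3.67, adjusted p = 0.101). In the pathway lists, 7 of 8 genes of glutamine and glutamate synthesis had a higher nitrogen effect in protoplasts, and 6 of 7 *DIN* genes a lower one.

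**Figure D2:**
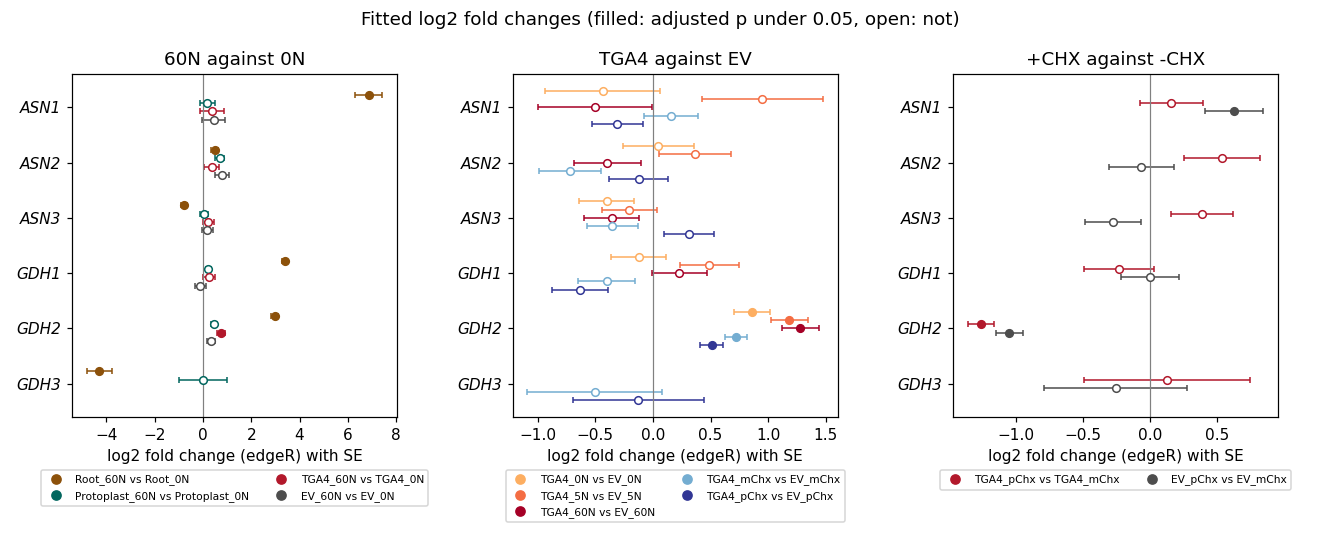
Fitted log2 fold changes (horizontal axes) with their SE for each gene (rows) in 3 sets of comparisons: 60N against 0N, TGA4 against EV, and +CHX against -CHX (pChx and mChx in the legend). Filled points passed an adjusted p of 0.05 and open points did not. Whole roots carry the only large nitrogen effects, *GDH2* is the only filled gene in the TGA4 panel, and *GDH3* is absent where it was not tested.

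Protoplasts and roots differed in most genes at either supply, with 86.4% of all genes called at 0N and 85.3% at 60N, so that a call was the common outcome. The patterns of the 6 genes were nonetheless unlike. At 0N, *ASN1* was higher in protoplasts by 7.87 ± 0.56 on the log2 scale and *GDH2* by 1.88 ± 0.13, whereas *ASN2* (-2.59 ± 0.16), *ASN3* (-3.09 ± 0.15), *GDH3* (-4.39 ± 0.58) and *GDH1* (-0.30 ± 0.10) were lower, *GDH3* again having entered through Root_0N. The *GDH1* groups overlapped, and its call was lost without Protoplast_0N replicate 1, 3 or 4 (down to -0.15, edgeR adjusted p up to 0.222). At 60N, *ASN1* was higher by 1.21 ± 0.32, while *GDH1* (-3.46 ± 0.10), *ASN2* (-2.37 ± 0.16), *ASN3* (-2.26 ± 0.15) and *GDH2* (-0.65 ± 0.13) were lower and *GDH3* (-0.09 ± 0.88) was not called. *GDH2* was thus above the root level at 0N and below it at 60N.

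These differences between tissues depend on scaling. With total counts only, the median log2 change of all genes moved to -1.10 at 0N and -0.95 at 60N, against -0.15 and -0.12 with TMM. The direction of each called gene stayed the same, but *GDH1* at 0N then stood at -1.25 and *GDH2* at 0.92, and *ASN1* at 60N was no longer called (0.37, edgeR adjusted p = 0.278). Shares within a family do not depend on scaling. *ASN1* made up 70.0% to 84.3% of *ASN* counts in Protoplast_60N, against 10.8% to 35.4% in Root_60N, and 74.8% to 83.1% in Protoplast_0N, against 0% to 0.564% in Root_0N. *GDH1* made up 3.03% to 4.24% of *GDH* counts in Protoplast_60N, against 17.4% to 24.5% in Root_60N, and 3.48% to 5.72% in Protoplast_0N, against 13.2% to 16.7% in Root_0N. Each of these differences had an exact permutation p of 0.0286, two-sided, adjusted to 0.162 for *ASN1* and 0.155 for *GDH1* over 17.

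**Figure D3:**
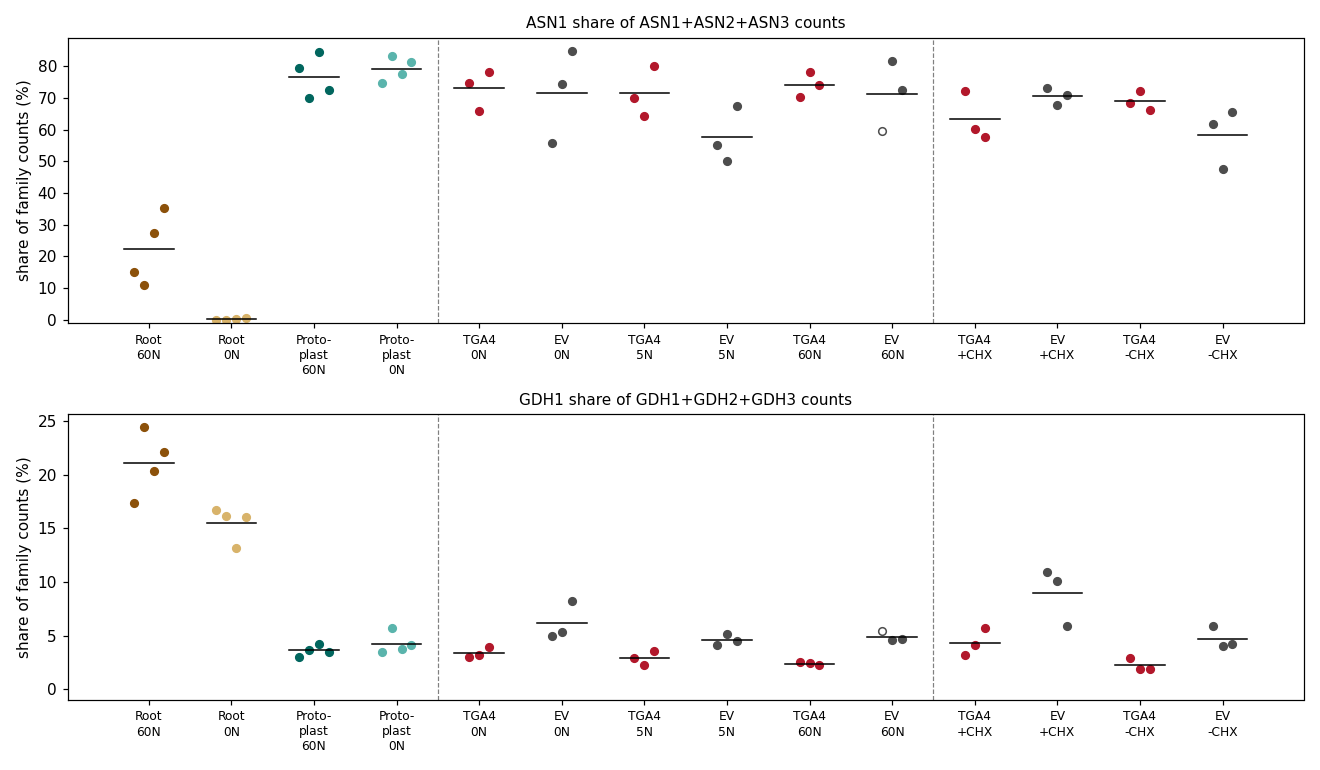
Share in percent (vertical axes) of *ASN1* in the counts of the 3 *ASN* genes and of *GDH1* in those of the 3 *GDH* genes, for each library of the 14 groups. Points are libraries, black lines are group means, dashed lines separate the 3 experiments, and the open point is the library labelled EV_60N replicate 1. The mean *ASN1* share is above 50% in every protoplast group and below it in both root groups, with the lowest protoplast libraries at 47.6% and 50.0%, and the *GDH1* share is lower in TGA4 than in EV at each of the 3 doses.

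In the nitrogen dose experiment, *GDH2* was the one member that differed between TGA4 and EV, at all 3 doses. *GDH2* was called higher in TGA4 cells by 1.82-fold at 0N, 2.27-fold at 5N and 2.43-fold at 60N, while *ASN1*, *ASN2*, *ASN3* and *GDH1* were not called. That is 1 of 5 members tested at each dose, against 8.86% of all genes at 0N, 7.89% at 5N and 7.74% at 60N. *GDH3* was not tested there, with at most 7 counts a library.

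At 0N, *GDH2* read 365, 304 and 288 CPM in TGA4_0N, against 158, 161 and 209 CPM in EV_0N (log2 0.86 ± 0.16, edgeR adjusted p = 0.0011). At 5N, it read 356, 385 and 351 CPM in TGA4_5N, against 180, 160 and 141 CPM in EV_5N (log2 1.18 ± 0.16, edgeR adjusted p = 3.86e-05). At 60N, it read 530, 555 and 525 CPM in TGA4_60N, against 165, 218 and 281 CPM in EV_60N (log2 1.28 ± 0.16, edgeR adjusted p = 1.22e-05). In each pair the lowest TGA4 library was above the highest EV library. Without the library labelled EV_60N replicate 1, whose 165 CPM was the lowest of its group, the difference at 60N was 1.11 ± 0.15 and stayed called (edgeR adjusted p = 5.65e-05). The vector differences of *ASN1* and *ASN2* at 60N were -0.50 ± 0.49 and -0.40 ± 0.29 with it and -0.90 ± 0.46 and -0.70 ± 0.25 without it, not called in either case (edgeR adjusted p = 0.63 and 0.489 with it, 0.29 and 0.119 without it). With total counts only, the median of all genes moved to -0.237 at 0N, -0.165 at 5N and -0.194 at 60N, and the *GDH2* differences to 0.65, 1.03 and 1.12, all still called.

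**Figure D4:**
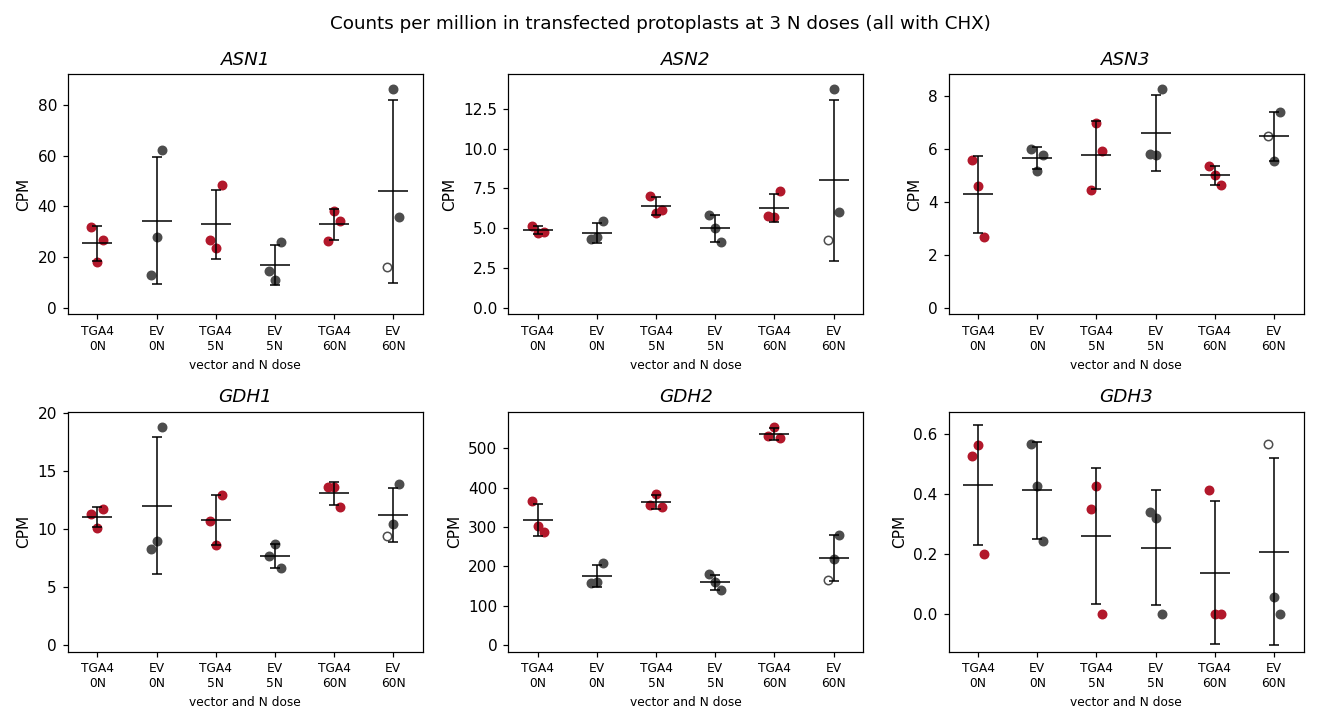
CPM (vertical axes, linear) of the 6 genes in protoplasts with TGA4 (red) or EV (grey) at 0N, 5N and 60N (horizontal axes), all with CHX. Points are libraries, bars and whiskers give the mean and SD of 3 libraries, and the open point is the library labelled EV_60N replicate 1. *GDH2* in TGA4 cells lies at 288 CPM or above at every dose, and in EV cells at 281 CPM or below.

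The other tested members overlapped between vectors or missed the threshold. *ASN1* read 31.7, 18.01 and 26.5 CPM in TGA4_0N, against 13.0, 27.8 and 62.1 CPM in EV_0N, and 26.6, 23.3 and 48.5 CPM in TGA4_5N, against 14.3, 10.8 and 25.8 CPM in EV_5N. In TGA4_60N it read 26.3, 38.1 and 34.4 CPM, against 15.8, 86.1 and 35.6 CPM in EV_60N. The EV wells spread widely, and the groups overlapped at every dose. *GDH1* ranged from 8.68 to 13.7 CPM over the 9 TGA4 libraries and from 6.65 to 18.8 CPM over the 9 EV libraries. *ASN2* ranged from 4.69 to 7.31 CPM with TGA4 and from 4.13 to 13.7 CPM with EV, and *ASN3* from 2.68 to 6.98 CPM with TGA4 and from 5.19 to 8.26 CPM with EV.

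With *GDH2* higher and *GDH1* not called, the *GDH1* share of *GDH* counts was 3.38% ± 0.47 in TGA4_0N and 6.17% ± 1.82 in EV_0N, 2.90% ± 0.68 in TGA4_5N and 4.60% ± 0.54 in EV_5N, and 2.38% ± 0.15 in TGA4_60N and 4.89% ± 0.44 in EV_60N (SD, n = 3 each). The shares did not overlap at any dose, and each exact permutation p was 0.1, two-sided, the smallest that 3 against 3 allows (adjusted 0.155 over 17). Without the library labelled EV_60N replicate 1, the difference in share at 60N was -2.26 percentage points, against -2.51 with it.

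Between nitrogen doses in the presence of CHX, *GDH2* in TGA4 cells gave the one call with all libraries in the fit. In TGA4 cells, *GDH2* had a mean of 319 CPM in TGA4_0N, 364 CPM in TGA4_5N and 537 CPM in TGA4_60N, and 60N against 0N was called (log2 0.75 ± 0.16, edgeR adjusted p = 0.0138), as the only one of 5 members tested, against 3.03% of all genes. The 3 TGA4_60N libraries were above all TGA4_0N libraries. The call was lost without TGA4_0N replicate 2 or 3 or TGA4_60N replicate 1 or 2 (log2 0.68 to 0.76, edgeR adjusted p 0.0524 to 0.0981), and kept when EV_60N replicate 1 was left out of the fit (edgeR adjusted p = 0.00191). None of 5 was called for TGA4_5N against TGA4_0N (0.273% of all genes), and 0 were called by DESeq2. There 0 passed an unadjusted p under 0.05, against 975 of 18342 genes. None of 5 was called for TGA4_60N against TGA4_5N either (0% of all genes), and 0 were called by DESeq2. There 1 passed unadjusted, *GDH2*, against 1615 of 18342 genes.

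In EV cells, *GDH2* had a mean of 176 CPM in EV_0N, 160 CPM in EV_5N and 221 CPM in EV_60N. None of 5 members was called at 60N against 0N (3.59% of all genes; 2 at an unadjusted p under 0.05, 0 by DESeq2), at 5N against 0N (1.59%; 1 unadjusted, 0 by DESeq2) or at 60N against 5N (0.0818%; 4 unadjusted, 0 by DESeq2). Of all 18342 genes tested, 2951 passed unadjusted at 60N against 0N, 3268 at 5N against 0N and 2331 at 60N against 5N. The library labelled EV_60N replicate 1 bears on these tests. Without it, *ASN2* was called at 60N against 0N (log2 1.10 ± 0.25, edgeR adjusted p = 0.0127) and at 60N against 5N (1.03 ± 0.26, 0.0495), and *GDH2* at 60N against 5N (0.64 ± 0.15, 0.0333). *ASN1* at 60N against 5N stood at 1.45 ± 0.51 with the library (edgeR adjusted p = 0.283, and 0.0205 with no filter on low counts) and at 1.85 ± 0.47 without it (edgeR adjusted p = 0.051), and at 5N against 0N at -1.01 ± 0.52 (edgeR adjusted p = 0.312). Without the library, *GDH2* at 60N against 0N stood at 0.50 ± 0.15 (edgeR adjusted p = 0.0505), with 5.38% of all genes called (1.5% at 60N against 5N). *ASN1* at 60N against 0N then stood at 0.84 ± 0.45 (edgeR adjusted p = 0.37). With the library, 60N against 0N gave 0.44 for *ASN1*, 0.805 for *ASN2* and 0.332 for *GDH2*. With it, 60N against 5N gave 0.73 for *ASN2* and 0.465 for *GDH2*. The EV_60N libraries had 4.24, 13.7 and 6.04 CPM of *ASN2*, so its call rests largely on replicate 2. The vector effect did not differ by dose at the threshold for any of 5 members (0% of all genes; 0 at an unadjusted p under 0.05, 0 by DESeq2), with an edgeR adjusted p of 0.969 for *GDH2*. Without that library 0 of 5 were called again and 2 passed an unadjusted p of 0.05, *ASN1* and *ASN2* (edgeR adjusted p = 0.955 for both). With the library in the fit, 797 of 18342 genes passed that unadjusted threshold.

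Around *GDH2*, few other pathway genes were called between vectors in this experiment. At 60N, with 7.74% of all genes called, no gene of asparagine and aspartate turnover (0 of 7) or of glutamine and glutamate synthesis (0 of 7) was called. Of 7 GABA shunt genes 1 was lower in TGA4 cells, *GAD2* (log2 -0.88 ± 0.19). *DIN9* was the one *DIN* gene called (0.51 ± 0.12), and *bZIP2* (0.56 ± 0.11) and *bZIP9* (0.64 ± 0.19) were higher. Without the library labelled EV_60N replicate 1 these 4 calls stayed, and *GLN1;1* was called higher as well (0.55 ± 0.15, edgeR adjusted p = 0.0279). Of 4 nitrate sentinels, 1 was also higher at 60N. At 0N, 1 of 7 GABA shunt genes and 2 of 9 bZIP factors were higher (8.86% of all genes called). At 5N, 1 of 7 genes of glutamine and glutamate synthesis, 1 of 7 *DIN* genes and 1 of 4 nitrate sentinels were higher (7.89%). Phloem marker sums were 109 to 118 CPM in TGA4_60N and 123 to 131 CPM in EV_60N, with 0 of 6 markers called at 60N or at 0N. At 5N, 1 of 6 phloem markers was lower in TGA4 cells, *NAKR1* (-0.77 ± 0.22), as was the endodermal gene *CASP1* (-1.62 ± 0.30). Root identity sums there were 14.8 to 25.3 CPM in TGA4_5N and 34.5 to 36.3 CPM in EV_5N, with no overlap. Of 5 root identity markers tested at 5N, 1 was called, against 7.89% of all genes. The part of such cell markers in the *GDH2* difference was not tested.

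In the cycloheximide experiment, *GDH2* was again higher in TGA4 cells, and it was lower with CHX in both vectors. With CHX it read 318, 344 and 319 CPM in TGA4 cells, against 222, 228 and 242 CPM in EV cells (log2 0.51 ± 0.10, edgeR adjusted p = 0.00617; 1.42-fold). In the absence of CHX it read 749, 831 and 768 CPM in TGA4 cells, against 456, 472 and 498 CPM in EV cells (log2 0.72 ± 0.10, edgeR adjusted p = 6.1e-05; 1.65-fold). Neither pair overlapped. *GDH2* was the only one of 6 members called in either comparison, against 1.92% of all genes with CHX and 5.88% without it. The call with CHX was lost without replicate 2 of TGA4 with CHX (0.47, edgeR adjusted p = 0.0619).

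With CHX against without it, *GDH2* changed by -1.26 ± 0.10 on the log2 scale in TGA4 cells (edgeR adjusted p = 5.15e-10) and by -1.05 ± 0.10 in EV cells (9e-09). CHX touched much of the transcriptome, with 45.9% of all genes called in TGA4 cells and 48.1% in EV cells, against 1 of 6 and 2 of 6 members. With total counts only, the median of all genes moved to -0.34 and -0.30, and *GDH2* to -1.58 and -1.33. The second member called was *ASN1* in EV cells, with 58.8, 38.2 and 58.2 CPM with CHX, against 36.5, 25.4 and 39.7 CPM without it (log2 0.62 ± 0.22, edgeR adjusted p = 0.0219). Its ranges overlapped, and the call was lost with total counts only (0.34, edgeR adjusted p = 0.204) and without EV_mChx replicate 2, EV_pChx replicate 1 or EV_pChx replicate 3 (0.44 to 0.54, edgeR adjusted p 0.0779 to 0.12), where mChx and pChx stand for -CHX and +CHX. In TGA4 cells *ASN1* read 61.4, 32.9 and 33.0 CPM with CHX, against 39.7, 43.4 and 30.7 CPM without it. The vector effect did not differ by CHX at the threshold for any member (0.129% of all genes; 1 at an unadjusted p under 0.05, *ASN3*, and 0 by DESeq2). Of all genes tested, 1236 of 18674 passed unadjusted. For *GDH2* the difference in log2 change was -0.21 ± 0.14.

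**Figure D5:**
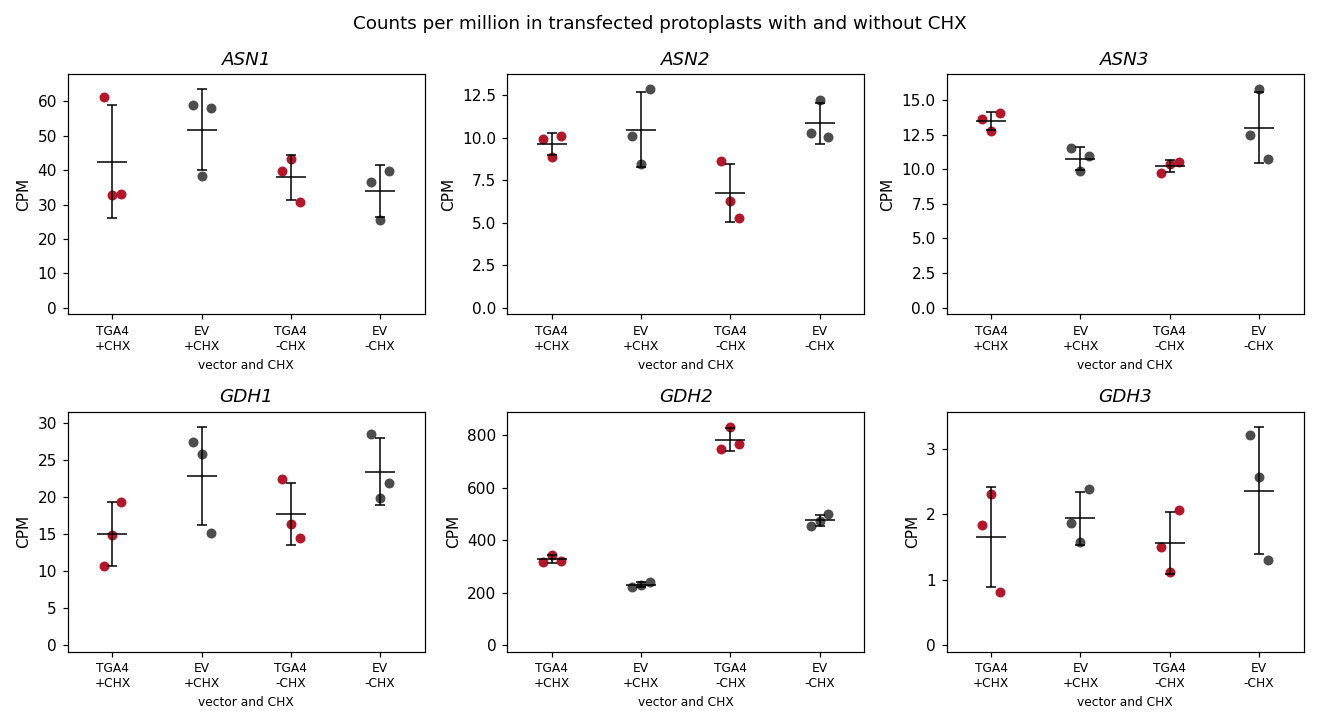
CPM (vertical axes, linear) of the 6 genes in protoplasts with TGA4 (red) or EV (grey), with and without CHX (horizontal axes). Points are libraries, and bars and whiskers give the mean and SD of 3 libraries. The 4 *GDH2* groups do not overlap, at 318 to 344 and 222 to 242 CPM with CHX and 749 to 831 and 456 to 498 CPM without it (TGA4 and EV in each pair).

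The remaining members were low in this experiment, which was also the least deeply sequenced. *GDH1* averaged 15.0 ± 4.3 CPM in TGA4 and 22.8 ± 6.7 CPM in EV cells with CHX, and 17.7 ± 4.2 CPM in TGA4 and 23.5 ± 4.5 CPM in EV cells without it (SD, n = 3 each). *ASN2* averaged 6.73 ± 1.71 CPM in TGA4 and 10.8 ± 1.2 CPM in EV cells without CHX, with no overlap but no call (log2 -0.72 ± 0.27, edgeR adjusted p = 0.13). *ASN3* lay between 9.73 and 15.8 CPM in all 12 libraries, and *GDH3* between 0.806 and 3.21 CPM, on 2 to 16 counts. The *GDH1* share of *GDH* counts was 4.35% ± 1.25 in TGA4 and 8.97% ± 2.73 in EV cells with CHX, and 2.22% ± 0.59 in TGA4 and 4.70% ± 1.01 in EV cells without it, with no overlap between vectors (exact permutation p = 0.1 for each, adjusted 0.155 over 17). Among the other pathway genes in EV cells, 4 of 7 of asparagine and aspartate turnover and 4 of 7 tested of glutamine and glutamate synthesis were lower with CHX, where 8979 of 18674 genes were called and 4572 were lower. In TGA4 cells without CHX, 3 of 5 phloem markers tested were lower than in EV cells, among them *SUC2* (-0.76 ± 0.18), and their sum was 152 to 192 CPM against 199 to 233 CPM. With CHX the same 3 fell in TGA4 cells, *SUC2*, *APL* and *SEOR1*, with sums of 138 to 178 CPM against 191 to 216 CPM. The sums of the root identity markers were 31.3 to 47.5 CPM in TGA4 and 73.3 to 77.0 CPM in EV cells with CHX, and 44.5 to 60.6 CPM and 76.3 to 83.1 CPM without it. Of 6 root identity markers tested, 1 was called lower in TGA4 cells with CHX (median log2 change -0.09) and 1 without it (median -0.55). Over all genes, 1.92% were called with CHX and 5.88% without it. The part of these markers in the *GDH2* difference was not tested.

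Each gene had its own order of levels. In roots and protoplasts, the mean CPM of *ASN1* was highest in Protoplast_60N (54.1) and Protoplast_0N (47.4), which overlapped with each other, then in Root_60N (23.4) and Root_0N (0.189). *GDH1* was highest in Root_60N (194), followed by Root_0N (18.5), Protoplast_60N (17.6) and Protoplast_0N (15.1), of which each overlapped with the next. *GDH2* ran in 4 separate steps, Root_60N (737), Protoplast_60N (472), Protoplast_0N (347) and Root_0N (94.4). *ASN3* ran from Root_0N (60.3) to Root_60N (35.3), above both protoplast groups (7.44 at 60N and 7.12 at 0N). In the nitrogen dose experiment the 3 TGA4 groups topped the order of *GDH2*, with TGA4_5N and TGA4_0N overlapping, while all neighbours overlapped for *ASN1*, *ASN2*, *ASN3*, *GDH1* and *GDH3*.

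As a description over the 14 group means, centred within each experiment, *ASN2* and *ASN3* had the most similar log2 levels among the members (Pearson r = 0.895), and *ASN1* and *ASN3* the most opposed (r = -0.799). The r was 0.657 for *ASN1* with *GDH2* and 0.466 for *GDH1* with *GDH2*. All of these means come from the same libraries, and they include the differences between protoplasts and roots (log2 -2.59 for *ASN2* and -3.09 for *ASN3* at 0N). With 60N in whole roots, *ASN2* and *ASN3* moved in opposite directions (0.48 and -0.77). Over the 16583 other genes tested in all 3 experiments, the nearest in pattern to *ASN1* were AT1G70780 (0.981), AT5G18630 (0.98) and *ATTPS6* (0.979). Those nearest to *ASN2* were AT4G40045 (0.973), AT3G10260 (0.971) and *FAD5* (0.969), and those nearest to *ASN3* were *LYM1* (0.983), *ARA4* (0.981) and AT5G52540 (0.979). For *GDH1* they were AT4G38810 (0.979), *DYL1* (0.974) and *AGT* (0.967), and for *GDH2* they were *RS2Z33* (0.952), AT5G16120 (0.95) and *UPI* (0.948).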

How the data were processed

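Whole roots and sorted root protoplasts were profiled by mRNA-seq in 46 libraries of 3 experiments. Reads were aligned by the authors to TAIR10 with TopHat2, per the labels and methods, then counted per gene with GenomicFeatures and GenomicAlignments and tested with DESeq2. The deposited values are raw read counts per gene and library. Strand use and the handling of reads shared by genes were not given in the sources used here. The authors' model had a batch term, which the labels do not give, so none was fitted.

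Each experiment was fitted on its own in edgeR 4.0.16 (R 4.3.3) with TMM scaling, filterByExpr by group, 1 mean per group and the quasi-likelihood test. The SE was derived from the log2 change and its F statistic, and p-values were Benjamini-Hochberg adjusted over all genes tested (18342 for N dose, 18674 for cycloheximide, 21007 for roots and protoplasts), with a threshold of 0.05. Shares within a family were compared by exact two-sided permutation tests, and limits for a share of 0 use 3 counts. The code was tested on simulated data. No 2 libraries of the same group agreed within sampling noise (pairs across groups were not compared).

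The same replicate numbers stand in every group. Same-numbered libraries deviated together in every pair in 1 comparison, EV_60N against EV_0N (r 0.129 to 0.221), where a replicate block left 0 of 5 members called, as without it. In the other 16 comparisons pairs ran from -0.0875 to 0.201.

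All 6 members were described, with pathway and marker lists. The members and lists were chosen with earlier results of these data known. Other genes were named as the 3 nearest in pattern to a member, or as examples of a list. Alternatives were DESeq2 1.42.0 in place of edgeR, its size factors, total counts only, no filter, a replicate block, only the 2 groups compared, a minimum log2 change of 1, and each library left out in turn. Leaving the library labelled EV_60N replicate 1 out of every N dose comparison was added after seeing the data. Promoter windows are the 250 bases before each RefSeq gene start in TAIR10.1.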

Additional observations from a re-analysis of the deposited data

Results flagged for a closer look

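*GDH1* had 1 library that stood apart in Protoplast_60N, at 20.3 CPM, with the other 3 between 16.4 and 17.0 CPM. Its gap to the nearest library was 0.85 of the group's range, above Dixon's 95% critical value for a group of this size. It was the only such library among 24 groups of 4 looked at, where chance gives about 1 in 20. The nitrogen effect differed between protoplasts and roots for 5 members by the interaction term of the edgeR fit, on the log2 scale: *ASN1* (-6.67), *GDH1* (-3.16), *GDH2* (-2.52), *ASN3* (0.83) and *GDH3* (4.31). *GDH3* passed the filter on low counts only through Root_0N, so its value is a description. Growth in liquid or on plates, wall digestion, transfection and sorting differed along with tissue, so their parts cannot be told apart.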

How the results depend on the processing

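Of 31 member results called by edgeR, 25 were called under every alternative other than the minimum log2 change, and 0 changed sign (3 of the 31 were of *GDH3*, whose entry rested on Root_0N); of 74 not called, 8 were called under some alternative and 27 changed sign. The block changed no other call than the one given next. For Protoplast_60N against Protoplast_0N, the count of members called was 0, but 2 with total counts only, 2 with DESeq2, 1 with the replicate block (*GDH2*) and 1 in a fit of the 2 groups only (*GDH2*). A minimum log2 change of 1 left 0 members for TGA4 against EV at 0N, with and without CHX, and for TGA4_60N against TGA4_0N, and 1 for CHX in EV cells. It also dropped *ASN2* and *ASN3* in Root_60N against Root_0N (4 left), *GDH1* in Protoplast_0N against Root_0N (5 left), *GDH2* in Protoplast_60N against Root_60N (4 left) and *ASN3* in the tissue by N interaction (4 left). EV_60N against EV_5N gave 1 without the filter (*ASN1*), and TGA4_60N against TGA4_5N gave 1 in the fit of 2 groups (*GDH2*). Leaving out 1 library each time, the counts ran from 0 to 1 for EV_60N against EV_0N, TGA4_60N against TGA4_0N, TGA4 against EV with CHX and Protoplast_60N against Protoplast_0N, from 0 to 2 for EV_60N against EV_5N, and from 1 to 2 for CHX in EV cells. Over all genes, total counts only moved the split of higher and lower calls by over 10 percentage points in 12 comparisons: to 702 and 2220 for TGA4_0N against EV_0N (1052 and 574 with TMM), 743 and 1326 for TGA4_5N against EV_5N (993 and 455), 673 and 1372 for TGA4_60N against EV_60N (956 and 463), 119 and 277 for EV_5N against EV_0N (190 and 102), 4330 and 1680 for the tissue by N interaction (2983 and 2139), 3346 and 6966 with CHX in EV cells (4407 and 4572), 3215 and 6883 with CHX in TGA4 cells (4367 and 4211), 5134 and 13634 for Protoplast_0N against Root_0N (8478 and 9662), 5428 and 13045 for Protoplast_60N against Root_60N (8567 and 9358), 678 and 98 for Protoplast_60N against Protoplast_0N (322 and 184), 303 and 541 for EV_60N against EV_0N (421 and 238), and 243 and 437 for TGA4_60N against TGA4_0N (331 and 225). With DESeq2's size factors, the split for Protoplast_60N against Protoplast_0N was 277 and 250. The number of all genes called, used as background, moved most in the weaker comparisons: in a fit of the 2 groups only, 0 became 820 for TGA4_60N against TGA4_5N, 556 became 2042 for TGA4_60N against TGA4_0N, 659 became 35 for EV_60N against EV_0N and 292 became 56 for EV_5N against EV_0N, while with DESeq2 506 became 991 for Protoplast_60N against Protoplast_0N, 15 became 104 for EV_60N against EV_5N and 0 became 115 for TGA4_60N against TGA4_5N. *ASN1*, *DIN1*, *DIN2* and *DIN11* in Root_0N and *GDH3* in Root_60N rest on few counts, which limits the size of their folds.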
